A study of Mus musculus with 18 samples.

Results

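The 284 transcripts described here are unannotated transcription units of the developing mouse cortex that lie more than 25000 bases from every protein-coding gene. They were chosen by position alone from the 630 transcripts that the authors assembled outside the Ensembl release 67 annotation: the interval of a transcript had to be over 25000 bases, on either strand, from each of 18538 protein-coding genes with reads in the deposited tables. The other 346 unannotated transcripts lay within that distance and are called near transcripts. Polyadenylated RNA was measured in 3 fractions of cells, sorted out of lateral cortex from C57BL/6 embryos at embryonic day 14.5, after meninges and ganglionic eminences had been taken off. All 3 fractions came from embryos with reporters at 2 genes, Btg2, an antiproliferative gene that marks progenitors about to make neurons, and the neuronal tubulin gene Tubb3. Proliferating progenitors (PP) are the cells without the red Btg2 signal, differentiating progenitors (DP) are the cells with it, and neurons (Neuron) are the cells with the green Tubb3 signal. The genotype label (Btg2GFP/Tubb3GFP) gives GFP at Btg2, whereas sample titles give RFP. Each fraction had 3 libraries, each from a pool of more than 3 embryos of different litters, and no group is an untreated control of another. PP is set by the absence of a signal, so any cell that lacked it and passed the scatter gate could enter that fraction.

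Long non-coding RNAs are long RNAs, often spliced and polyadenylated, with no long open reading frame. Those that lie far from coding genes are named intergenic, and many are transcribed in a narrow set of cell types and at low levels. In the embryonic cortex, radial glia divide at the ventricle, give rise to intermediate progenitors that express Eomes and Btg2, and these divide into neurons that migrate outward. Some long RNAs of this tissue host microRNAs or run beside the genes of cortical transcription factors. Whether the 284 transcripts code for a peptide was not analysed here.

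The transcripts were short in exon number and spread over the genome (build mm9 throughout unless GRCm38 is named). The share with 2 exons was 59.2%, against 71.4% of near transcripts. Exons numbered 3 in 72 of them and 4 or more in 43, and 1 transcript had a single exon. Exon bases ran from 132 to 58456 with a median of 1934. The distance to the nearest protein-coding gene ran from 25459 to 2112276 bases with a median of 80462. It was 25000 to 50000 bases in 91 transcripts, up to 100000 in 73, and more in the other 120. Chromosome 12 held 35 of the transcripts, followed by chromosomes 1 and 2 with 21 each, and chromosome 19 held 1.

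Strands were near even, with 150 on the plus and 134 on the minus strand. Upstream of the nearest gene lay 132 transcripts and downstream 152, and 165 had the strand of that gene. None overlapped an Ensembl feature on its own strand. On the opposite strand 13 of the 284 overlapped one, against 81 of the 346 near transcripts. Joining transcripts with gaps of at most 50000 bases gave 233 loci, of which 41 held 2 to 4 transcripts. Because the rule used genes with reads, 4 transcripts lie within 25000 bases of a gene without reads that a later annotation calls protein-coding. XLOC_018752 overlaps the span of such a gene, Kng2 (distance 0). XLOC_010770 lies 5391 bases from Dcdc2c, XLOC_027488 14527 bases from 4930470P17Rik and XLOC_035617 13263 bases from Klf17.

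A later annotation, GENCODE M21 on GRCm38, was searched for the same transcripts without moving coordinates between builds. A match needed the same chromosome and strand, the same pair of flanking protein-coding genes and at least 1 intron of exactly the same length. It was found for 38 of 284 transcripts, and 37 of the 38 matched genes are lincRNAs. Only 7 of the 38 matched by 2 or more introns, and in 15 all introns of the transcript were matched. In 21 of the 38 the intron also lay within 100 bases of the same distance from the flanking gene in both builds, while the largest difference was 134883 bases, so not every match need be the same transcript. The matched genes are known by number names with no stated function. The 5 junctions shown belong to matched transcripts among those with the largest differences or with a peak in DP. For Gm32618, Gm30735 and Gm27166 that distance differed by 0 bases, for Gm4166 by 135 and for Gm29684 by 257. The match rests on 1 of 3 introns of the transcript for Gm32618 and for Gm29684, 1 of 5 for Gm4166, 1 of 2 for Gm27166 and 1 of 1 for Gm30735. The other introns were not matched. XLOC_000135, matched to Gm28822, is left out because its distance differed by 14597 bases. In lower case are the last 30 bases of the exon before the matched intron and in capitals the first 30 bases of the exon after it, read 5′ to 3′ from the GENCODE transcript. The introns lie at chr15:32793611-32795120 for Gm32618, chr10:95145050-95145714 for Gm29684, chr12:27602054-27603839 for Gm4166, chr3:53730046-53732639 for Gm30735 and chr9:33088956-33089337 for Gm27166 in GRCm38. Gm29684 lies on the minus strand and the others on the plus strand.
XLOC_016574 (Gm32618): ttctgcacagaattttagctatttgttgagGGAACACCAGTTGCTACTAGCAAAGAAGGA
XLOC_005186 (Gm29684): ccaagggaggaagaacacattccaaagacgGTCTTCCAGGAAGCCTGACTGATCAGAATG
XLOC_009667 (Gm4166): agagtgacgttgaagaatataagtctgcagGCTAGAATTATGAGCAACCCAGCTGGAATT
XLOC_030246 (Gm30735): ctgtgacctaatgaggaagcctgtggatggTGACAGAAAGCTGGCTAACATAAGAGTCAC
XLOC_049573 (Gm27166): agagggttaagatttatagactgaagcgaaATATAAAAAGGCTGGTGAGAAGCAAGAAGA

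The transcript with the highest mean CPM (counts scaled to the library total), XLOC_045784, lies 7 bases from the gene of Mir9-3, a source of miR-9, a microRNA of neural progenitors. Mir9-3 is on the plus strand and XLOC_045784 on the minus strand, where it also overlaps the lincRNA AI854517 of the plus strand. The mature products of the neighbouring microRNA gene are shown, which other Mir9 genes give too, with the seed (bases 2 to 8) in capitals, from RefSeq on GRCm38.p6.
mmu-miR-9-5p: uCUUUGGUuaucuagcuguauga
mmu-miR-9-3p: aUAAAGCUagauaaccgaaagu

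Libraries held 34337209 to 55935128 counts. Btg2 stood at 445 ± 67.6 CPM (SD, n = 3 here and for every such mean) in PP, 888 ± 251 in DP and 169 ± 22.2 in Neuron, and Tubb3 at 87.9 ± 29.5, 581 ± 98.9 and 2384 ± 261. CPM are counts scaled to 1e6 of the TMM-adjusted library total. All 8 radial glia markers were lower in Neuron than in DP, 5 of 5 intermediate progenitor markers were higher in DP than in PP, and 6 of 6 measured neuron markers were higher in Neuron than in DP. Libraries L222 (PP), L223 (DP) and L224 (Neuron), doubted in an earlier analysis of these data, were also left out together. The counts of far transcripts called were then, for DP against PP, 81 higher and 30 lower, 83 and 64 in Neuron against DP, and 111 and 62 in Neuron against PP, close to those with all libraries.

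Most of the 284 transcripts were rare. In 181 the mean stayed under 1 CPM in all 3 fractions, 22 reached 10 CPM in a fraction and 2 reached 100 CPM. The 284 together took 0.102% to 0.129% of the counts of a PP library, 0.0856% to 0.0993% in DP and 0.0475% to 0.0529% in Neuron, and XLOC_045784 and XLOC_000267 alone held 41.5% of those reads over all libraries. Without that pair the shares were 0.0442% to 0.0496% in PP, 0.0454% to 0.0611% in DP and 0.0422% to 0.0480% in Neuron, which overlap. The mean was highest in Neuron for 140 transcripts, in PP for 84 and in DP for 60. No read at all was counted in PP for 32, in DP for 12 and in Neuron for 10. Per kilobase of exon, the median level of the 209 tested transcripts was 0.199 CPM, against 0.300 for 275 near transcripts, 0.937 for 1472 annotated long non-coding RNAs and 7.53 for 14718 protein-coding genes.

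The 8 transcripts with the highest mean CPM over all libraries, a ranking by reads and not per length, held 67.3% of the reads of the 284. Values are given by library in the order L222, L355 and L393 for PP, L223, L356 and L394 for DP, and L224, L357 and L395 for Neuron. XLOC_045784 (chr7:86650246-86679283, minus strand, 2 exons, 38998 bases from Polg) stood at 287, 193 and 373 CPM in PP, 238, 116 and 190.3 CPM in DP and 67.7, 55.3 and 49.8 CPM in Neuron. Its PP and DP libraries overlapped, and all Neuron libraries were below them. It was 4.94-fold lower (log2 -2.30 ± 0.27 SE, adjusted p = 9.88e-06) in Neuron than in PP and 3.15-fold lower (log2 -1.65 ± 0.27 SE, adjusted p = 0.000170) than in DP, and, with no strand setting known, reads of the opposite strand cannot be told apart from its own. The difference of DP from PP, log2 -0.65 ± 0.26, missed the threshold (adjusted p = 0.0654) and passed it without PP library L355 or without DP library L223. It also passed with the 3 sets of consecutively numbered libraries (L222 to L224, L355 to L357 and L393 to L395) as a block (adjusted p = 0.0160), a replicate block added after the data were seen.

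XLOC_000267 (chr1:41799848-41998277, plus strand, 16 exons, 288294 bases from Gm9915) stood at 351, 343 and 345 CPM in PP, 152, 165 and 177 CPM in DP and 7.33, 5.36 and 3.99 CPM in Neuron. The 3 fractions did not overlap and fell in the order PP, DP, Neuron. It was 2.10-fold lower (log2 -1.07 ± 0.14 SE, adjusted p = 8.59e-05) in DP than in PP and 29.5-fold lower (log2 -4.88 ± 0.17 SE, adjusted p = 4.46e-10) in Neuron than in DP. Per kilobase of exon it stood at 17.6 CPM in PP, against 9.90 for XLOC_045784.

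XLOC_034624 (chr4:23596749-24358012, minus strand, 14 exons, 65586 bases from Mms22l) is the longest of all, with 761264 bases from end to end and 58456 exon bases. It stood at 79.4, 72.5 and 71.0 CPM in PP, 54.5, 75.5 and 71.6 CPM in DP and 25.5, 18.4 and 15.5 CPM in Neuron. PP and DP overlapped and Neuron lay below both. Neuron was 3.39-fold lower (log2 -1.76 ± 0.17 SE, adjusted p = 1.97e-06) than DP. XLOC_019310 (chr16:3625033-3633297, minus strand, 2 exons) had the highest level per kilobase of exon, 15.4 CPM over all libraries. It stood at 54.0, 42.0 and 60.5 CPM in PP, 48.6, 40.1 and 64.3 CPM in DP and 34.7, 28.5 and 38.0 CPM in Neuron, so that PP and DP overlapped and Neuron was the lowest. Its fall from DP to Neuron, 1.51-fold lower (log2 -0.60 ± 0.18 SE, adjusted p = 0.0109), was lost without DP library L394 or Neuron library L357.

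XLOC_017611 (chr15:43565122-43604723, minus strand, 2 exons, 93518 bases from Tmem74) followed another course, with 8.59, 6.36 and 3.88 CPM in PP, 49.2, 104 and 65.5 CPM in DP and 35.1, 26.9 and 26.0 CPM in Neuron. It was highest in every DP library and lowest in every PP library. XLOC_037371 (38.7 ± 2.23 CPM in PP, 32.8 ± 1.95 in DP and 19.8 ± 1.20 in Neuron) and XLOC_000297 (32.3 ± 4.50 CPM in PP, 25.6 ± 2.59 in DP and 17.3 ± 2.56 in Neuron) fell from DP to Neuron by less. From PP to DP, XLOC_000297 was called lower with the block (adjusted p = 0.0392) and not without it. From DP to Neuron XLOC_037371 was 1.66-fold lower (log2 -0.73 ± 0.08 SE, adjusted p = 8.03e-06) and XLOC_000297 1.48-fold lower (log2 -0.57 ± 0.13 SE, adjusted p = 0.00218). XLOC_035756 (9.23 ± 0.370 CPM in PP, 14.7 ± 3.77 in DP and 47.5 ± 4.64 in Neuron) was the only one of the 8 with its highest mean in Neuron. It was 3.23-fold higher (log2 1.69 ± 0.16 SE, adjusted p = 1.87e-06) there than in DP.

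**Figure D1:**
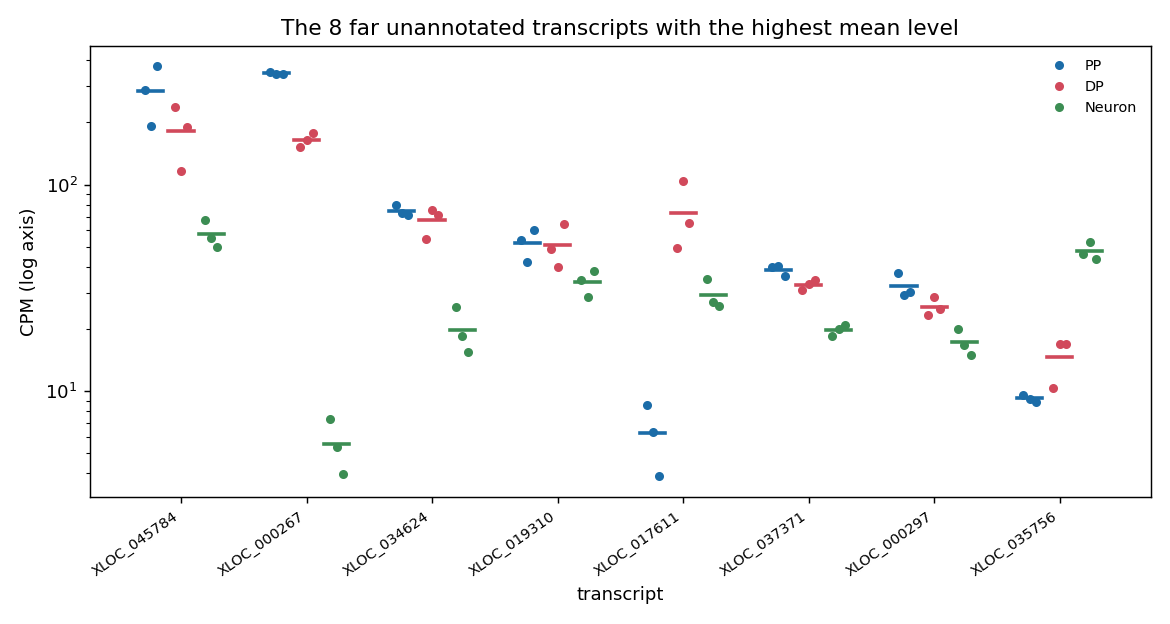
Levels in CPM (log axis) of the 8 far unannotated transcripts with the highest mean CPM, with 1 point per library and a line at the mean of the 3 libraries of PP, DP and Neuron. XLOC_000267 drops most from DP to Neuron, XLOC_017611 peaks in DP and XLOC_035756 in Neuron.

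Tests were run on the 209 of 284 transcripts that passed the filter on low counts, among 18627 features in all, with the quasi-likelihood test of edgeR, at a Benjamini-Hochberg adjusted p of 0.05. The other 75 had 5 to 77 reads over all libraries, and their mean was highest in Neuron for 36, in PP for 23 and in DP for 16. Of the 209, 49 were over the filter level of 0.232 CPM in all libraries of Neuron only, 17 in those of PP only and 9 in those of DP only, and such transcripts passed through the fraction in which they are high. Counts over the 209 are thus descriptions of tested transcripts, not of all 284. In sorted bulk RNA, fewer cells of a type and less RNA per cell cannot be told apart.

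From proliferating to differentiating progenitors, more of the tested far transcripts rose than fell. In DP, 78 of the 209 were higher than in PP and 37 lower, while 94 were not called. Over all 18627 features 21.3% were higher and 20.2% lower, 41.4% in either direction, against 37.3%, 17.7% and 55.0% of the tested far transcripts. With the block 51.2% of all features and 57.4% of the tested far transcripts were called. The 209 include 9 tested through DP only and 17 through PP only, which was not counted over all features. The median log2 difference was 0.57 over the 209 and -0.02 over all features, and it was 0.57 with the 2 transcripts without reads in 1 fraction at their bound and 16 with no usable fold left out. Among those called higher the median fold was 6.04, and 73 of 78 differed by at least 2-fold. The 78 lie in 67 loci, so some share a stretch of genome. Of the 78, 75 had no overlap between DP and PP libraries, as did all 37 of those lower. Among all features, 20.6% were higher and 19.3% lower without overlap, which is 96.9% and 95.9% of those called.

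Differences were ranked among called transcripts with at least 1 CPM in the higher fraction and no overlap between the libraries compared. The 6 largest rises from PP to DP within these limits began from PP means of at most 0.245 CPM. XLOC_015529 (chr14:32803407-32816250, minus strand, 4 exons) lies 25925 bases from Galntl2, a glycosyltransferase gene. It stood at 0, 0 and 0.0411 CPM in PP, 1.04, 1.47 and 1.71 CPM in DP and 5.64, 5.24 and 7.80 CPM in Neuron, and each step was free of overlap. With 2 reads in PP it was 93.5-fold higher by pooled reads, with a counting interval of 25.5 to 778 (adjusted p = 5.40e-06) in DP. Counting intervals here are exact at 95% and cover counting error only. Galntl2 itself stood at 0.722 ± 0.183 CPM in PP, 5.32 ± 0.111 in DP and 7.33 ± 1.54 in Neuron and was also higher in DP than in PP.

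XLOC_038693 (chr5:98564060-98568052, minus strand, 3 exons) lies 41836 bases from Prdm8, the gene of a zinc finger protein of neurons. It stood at 0.0805, 0 and 0 CPM in PP, 0.965, 2.01 and 1.81 CPM in DP and 2.46, 2.09 and 2.45 CPM in Neuron, with 3 reads in PP in all. All DP libraries lay above PP, and DP was 71.8-fold higher by pooled reads, with a counting interval of 24.3 to 351 (adjusted p = 1.70e-05). Prdm8 rose over the same step, from 3.46 ± 2.02 to 51.7 ± 11.3 CPM. XLOC_005186 (chr10:94593364-94608492, minus strand, 4 exons), whose junction stands above with Gm29684, stood at 0.0805, 0.256 and 0.247 CPM in PP, 4.64, 6.82 and 6.85 CPM in DP and 4.54, 3.84 and 4.82 CPM in Neuron. DP and Neuron overlapped and both lay far above PP, and Neuron was called lower than DP with the block only (adjusted p = 0.0392). DP was 29.9-fold higher (log2 4.90 ± 0.30 SE, adjusted p = 5.00e-07) than PP, while its nearest gene Cradd, a death-domain adaptor, rose by less, from 6.15 ± 0.478 to 8.05 ± 0.184 CPM.

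The other 3 of the 6 were also low in all PP libraries. XLOC_009658 (chr12:27562391-27574453, plus strand, 4 exons) stood at 0.245 ± 0.127 CPM in PP, 5.02 ± 1.92 in DP and 7.11 ± 1.53 in Neuron and was 21.1-fold higher (log2 4.40 ± 0.41 SE, adjusted p = 7.77e-06) in DP than in PP. XLOC_010766 (chr12:28646254-28662699, minus strand, 2 exons), 575921 bases from Allc, stood at 0.220 ± 0.182 CPM in PP, 4.00 ± 0.555 in DP and 4.65 ± 0.915 in Neuron and was 19.1-fold higher (log2 4.26 ± 0.37 SE, adjusted p = 4.96e-06). XLOC_034886 (chr4:45760118-45769160, minus strand, 2 exons) stood at 0.0946 ± 0.0364 CPM in PP, 1.77 ± 0.391 in DP and 4.22 ± 0.971 in Neuron and was 17.7-fold higher (log2 4.15 ± 0.35 SE, adjusted p = 3.64e-06). None of the 3 had an overlap between PP and DP libraries. The gene next to XLOC_034886, Aldh1b1, a mitochondrial aldehyde dehydrogenase, stood at 2.63 ± 0.514 CPM in PP, 10.7 ± 2.09 in DP and 24.6 ± 1.52 in Neuron, and Allc was not tested for lack of reads. Gm9866, 251214 bases from XLOC_009658, was not called between PP and DP.

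The 6 largest falls from PP to DP within the same limits were smaller in fold, and all 6 went on falling to Neuron with no overlap between any of the fractions. XLOC_016574 (chr15:32708788-32725822, plus strand, 4 exons), matched to Gm32618, lies 82692 bases from Sema5a, a semaphorin gene of axon guidance. It stood at 16.2, 19.1 and 17.4 CPM in PP, 5.41, 3.72 and 4.82 CPM in DP and 0.234, 0.386 and 0.258 CPM in Neuron. DP was 3.79-fold lower (log2 -1.92 ± 0.16 SE, adjusted p = 2.77e-06) than PP, and Neuron was 15.5-fold lower (log2 -3.95 ± 0.22 SE, adjusted p = 1.83e-08) than DP. Sema5a fell in the same order, with 750.1 ± 88.5 CPM in PP, 417 ± 32.7 in DP and 47.6 ± 12.1 in Neuron.

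XLOC_025778 (chr2:30593512-30617402, plus strand, 2 exons) stood at 8.69 ± 1.13 CPM in PP, 2.50 ± 0.317 in DP and 0.295 ± 0.0596 in Neuron and was 3.47-fold lower (log2 -1.80 ± 0.16 SE, adjusted p = 6.70e-06) in DP than in PP. XLOC_001861 (chr1:34707295-34722101, minus strand, 1 exon), the single-exon transcript, stood at 9.67, 10.4 and 10.7 CPM in PP, 3.72, 2.34 and 3.14 CPM in DP and 0.0702, 0.183 and 0.103 CPM in Neuron. It was 3.35-fold lower (log2 -1.74 ± 0.19 SE, adjusted p = 2.26e-05) in DP than in PP and 24.5-fold lower (log2 -4.62 ± 0.29 SE, adjusted p = 5.44e-08) in Neuron than in DP. Arhgef4, 56668 bases away, fell from PP to DP but was higher in Neuron than in DP, with 43.2 ± 2.36 CPM in PP, 16.2 ± 2.63 in DP and 30.1 ± 0.733 in Neuron. The nearest gene of XLOC_025778, 1700001O22Rik, stood at 5.03 ± 1.23 CPM in PP, 3.09 ± 0.923 in DP and 2.20 ± 0.0799 in Neuron.

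XLOC_011390 (chr12:107137406-107145360, minus strand, 4 exons) stood at 12.1 ± 2.49 CPM in PP, 3.67 ± 1.63 in DP and 0.521 ± 0.212 in Neuron and was 3.32-fold lower (log2 -1.73 ± 0.30 SE, adjusted p = 0.000818) in DP than in PP. Papola, the poly(A) polymerase gene 60252 bases away, stood at 316.4 ± 13.7 CPM in PP, 301 ± 10.8 in DP and 234 ± 2.98 in Neuron and was not called between PP and DP. XLOC_011296 stood at 1.25 ± 0.234 CPM in PP, 0.412 ± 0.174 in DP and 0.0679 ± 0.0460 in Neuron and was 3.05-fold lower (log2 -1.61 ± 0.34 SE, adjusted p = 0.00272) in DP than in PP. Its neighbour Foxn3, a forkhead factor, was not called in any of the 3 comparisons, but was lower in Neuron than in DP with the block (adjusted p = 0.00864). XLOC_017374 stood at 1.34 ± 0.422 CPM in PP, 0.440 ± 0.0629 in DP and 0.0539 ± 0.0276 in Neuron and was 3.03-fold lower (log2 -1.60 ± 0.29 SE, adjusted p = 0.00103). The nearest gene, Glycam1, was not tested for lack of reads.

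Markers of other cell types moved over the same step in both directions. Neuron markers summed to 131 to 317.25 CPM in PP and 1804 to 2552 CPM in DP, with 6 of 6 higher in DP, and intermediate progenitor markers rose in 5 of 5. Cajal-Retzius markers summed to 4.07 to 7.49 CPM in PP and 54.8 to 62.7 CPM in DP (5 of 5 higher), and 3 of 7 interneuron markers were higher in DP. The summed level of 9 red blood cell genes ran from 8365 to 15324 CPM in PP, 18.4 to 125 CPM in DP and 14.0 to 16.4 CPM in Neuron, and 7 of them were lower in DP than in PP. Pericyte markers summed to 29.1 to 49.7 CPM in PP, 8.71 to 12.5 CPM in DP and 2.43 to 2.78 CPM in Neuron, with 4 of 4 lower in DP. Endothelial markers summed to 7.97 to 25.0 CPM in PP, 8.43 to 9.79 CPM in DP and 1.87 to 4.09 CPM in Neuron (5 of 7 lower in DP), microglia markers to 7.89 to 10.1 CPM in PP, 4.85 to 5.75 CPM in DP and 1.47 to 2.54 CPM in Neuron (1 of 4 tested lower), and markers of meninges to 8.99 to 49.9 CPM in PP, 3.62 to 6.78 CPM in DP and 0.650 to 1.29 CPM in Neuron (2 of 3 tested lower and 1 higher). No marker of the blood, vessel, microglia and meninges lists had a mean of 0 in a fraction, but Cldn5, Anpep, Ptprc, Fcgr3, Lum and Foxc1 were at 0 in single libraries. Radial glia markers summed to 5403 to 6319 CPM in PP, 2494 to 3625 CPM in DP and 298 to 380.1 CPM in Neuron, with 7 of 8 lower in DP. With the block further markers were called between PP and DP. Hes5 (adjusted p = 0.000738), Hba-x (adjusted p = 0.0168) and Hbb-y (adjusted p = 0.0390) were then lower in DP, and Dlx2 was higher (adjusted p = 0.0130). The part of each of these cell types in the rises and falls of far transcripts was not tested.

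From differentiating progenitors to neurons, 86 of the 209 tested transcripts were higher and 65 lower, and 58 were not called. With at least 1 CPM asked in 3 libraries, 37 were higher and 38 lower, so that the excess of rises was gone. Among the 209 the shares, 41.1%, 31.1% and 72.2% in either direction, compare with 33.1% higher, 34.2% lower and 67.3% in either direction over all features. The 209 include 49 tested through Neuron only and 9 through DP only, which was not counted over all features. With the block 73.2% of the 209 and 73.1% of all features were called, so that the shares were almost equal. The median log2 difference was 0.19, or 0.20 with 8 transcripts set at their bound and 1 left out, against -0.04 over all features. None of the 86 or the 65 had overlapping libraries. Among all features, 32.7% were higher and 33.5% lower without overlap, which is 98.8% and 98.0% of those called. The DP libraries enter this comparison as well as the one with PP, so the values of the 2 comparisons are not independent.

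The 6 largest rises from DP to Neuron, again with at least 1 CPM and no overlap, belonged to transcripts with few reads in both progenitor fractions. Their PP and DP means were all under the filter level of 0.232 CPM, so they were tested through Neuron, where they are high. Their adjusted p-values are thus no separate support for the rises. XLOC_049573 (chr9:32866247-32901458, plus strand, 3 exons), matched to Gm27166, lies 300842 bases from Ets1, an ETS transcription factor. It stood at 0, 0.0214 and 0 CPM in PP, 0, 0 and 0 CPM in DP and 1.26, 1.30 and 1.42 CPM in Neuron. With no read in DP it was at least 59.8-fold higher (adjusted p = 9.45e-07), set against 3 counts over the group. Ets1 stood at 3.47 ± 1.53 CPM in PP, 2.14 ± 0.331 in DP and 5.08 ± 0.956 in Neuron and was also higher in Neuron than in DP.

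XLOC_030007 (chr3:16717125-16733766, plus strand, 4 exons) lies 600090 bases from Ythdf3 and stood at 0, 0 and 0 CPM in PP, 0, 0.0581 and 0 CPM in DP and 2.74, 2.56 and 3.06 CPM in Neuron. Neuron was 125-fold higher by pooled reads, with a counting interval of 42.5 to 609 (adjusted p = 1.30e-06) than DP, and at least 122-fold higher (adjusted p = 6.44e-07) than PP. Ythdf3, a reader of methylated RNA, fell over the step to Neuron, with 176 ± 5.98 CPM in PP, 183 ± 6.62 in DP and 140.4 ± 2.20 in Neuron. XLOC_009804 (chr12:51050130-51141077, plus strand, 2 exons), 301141 bases from Prkd1, stood at 0.107, 0.0641 and 0.0822 CPM in PP, 0.0942, 0.136 and 0.193 CPM in DP and 9.97, 13.2 and 12.4 CPM in Neuron. Neuron was 82.8-fold higher (log2 6.37 ± 0.24 SE, adjusted p = 7.74e-10) than DP, while the kinase gene Prkd1 moved the other way, with 65.2 ± 0.849 CPM in PP, 42.9 ± 1.94 in DP and 7.36 ± 0.254 in Neuron.

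XLOC_040971 (chr6:6699631-6705843, minus strand, 2 exons) lies 107491 bases from Dlx6, a homeobox gene of GABAergic interneurons. It stood at 0.0268, 0 and 0 CPM in PP, 0.0471, 0.0194 and 0.0241 CPM in DP and 1.78, 1.63 and 1.73 CPM in Neuron, and no Neuron library overlapped a progenitor library. Neuron was 52.9-fold higher (log2 5.72 ± 0.40 SE, adjusted p = 1.27e-07) than DP. Dlx6 stood at 0.232 ± 0.242 CPM in PP, 1.64 ± 1.17 in DP and 4.62 ± 1.94 in Neuron and was higher in Neuron too. XLOC_037653 (chr5:129573028-129576105, plus strand, 2 exons) was 34.5-fold higher (log2 5.11 ± 0.42 SE, adjusted p = 5.23e-07) and XLOC_026497 (chr2:92619569-92692095, plus strand, 3 exons) 32.1-fold higher (log2 5.00 ± 0.34 SE, adjusted p = 1.08e-07). They stood at 0.0848 ± 0.0229 CPM in PP, 0.0302 ± 0.0148 in DP and 1.12 ± 0.301 in Neuron and at 0.0369 ± 0.00873 CPM in PP, 0.0833 ± 0.0535 in DP and 2.71 ± 0.537 in Neuron. Their neighbours did not move with them: Gpr133, an adhesion receptor, was not called from DP to Neuron, and Syt13, a synaptotagmin, fell from 5.03 ± 0.570 to 1.51 ± 0.279 CPM.

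Most markers of interneurons and of Cajal-Retzius cells, which enter the cortex from elsewhere, rose over this step. Interneuron markers summed to 5.24 to 52.2 CPM in PP, 28.9 to 154.96 CPM in DP and 421 to 454 CPM in Neuron, with 5 of 7 higher in Neuron than in DP. With the block Dlx1 (adjusted p = 0.0334) and Dlx2 (adjusted p = 0.0278) were called higher as well. Cajal-Retzius markers summed to 4.07 to 7.49 CPM in PP, 54.8 to 62.7 CPM in DP and 809 to 926 CPM in Neuron, with 4 of 5 higher and 1 lower. Of these markers Lhx1 was at 0 in PP library L355, and no other was at 0 in a library. Their part in the rises of far transcripts, XLOC_040971 by Dlx6 included, was not tested.

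Among the 6 largest falls from DP to Neuron within these limits were XLOC_000267 and XLOC_001861, described above. XLOC_018978 (chr16:44662956-44667063, plus strand, 4 exons) stood at 9.02, 7.86 and 8.24 CPM in PP, 3.27, 2.31 and 3.16 CPM in DP and 0.0468, 0.0406 and 0.0773 CPM in Neuron and was 51.5-fold lower (log2 -5.69 ± 0.29 SE, adjusted p = 8.47e-09) in Neuron than in DP. XLOC_012383 (chr13:60227038-60234235, plus strand, 2 exons) lies 41531 bases from Gas1, a membrane protein that binds hedgehog ligands. It stood at 2.34, 2.31 and 2.96 CPM in PP, 1.27, 0.756 and 1.23 CPM in DP and 0.0468, 0.0203 and 0.0258 CPM in Neuron and was 32.3-fold lower (log2 -5.01 ± 0.42 SE, adjusted p = 6.64e-07). The fractions of both transcripts fell in the order PP, DP, Neuron without overlap. Gas1 fell with XLOC_012383, with 305 ± 9.50 CPM in PP, 141 ± 34.3 in DP and 2.35 ± 0.397 in Neuron, and BC027231, next to XLOC_018978, stood at 44.7 ± 3.23 CPM in PP, 33.9 ± 1.49 in DP and 16.2 ± 1.36 in Neuron. The remaining 2 of the 6, XLOC_007760 and XLOC_050622, peak in DP. Transcripts under 1 CPM were outside the ranking, some with larger ratios by pooled reads. XLOC_039905 was 132-fold higher in Neuron than in DP (127 against 1 reads, counting interval 23.2 to 5241), and XLOC_003143 was 65.6-fold lower (1 against 68 reads, counting interval 11.4 to 2628).

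Over the whole course, from PP to Neuron, 111 of the 209 were higher and 67 lower, with 31 not called. That is 53.1% higher, 32.1% lower and 85.2% in either direction, against 36.7%, 38.6% and 75.3% over all features. These shares and the median include 49 transcripts over the filter level in Neuron only and 17 in PP only. Such transcripts were tested through the fraction in which they are high, and they were not counted over all features. With the block 85.6% of the 209 and 80.2% of all features were called. The median log2 difference was 0.99, against -0.04 over all features, and it stayed at 0.99 with the 17 transcripts that lack reads in 1 fraction set at their bound. The median fold was 13.0 among those higher and 4.93 among those lower. Among the 6 largest rises with at least 1 CPM and no overlap, 4 have been given above. XLOC_034706 (chr4:33744247-33750719, minus strand, 2 exons), 154658 bases from Rngtt, stood at 0.0268, 0 and 0 CPM in PP, 0.0471, 0.194 and 0.193 CPM in DP and 2.01, 1.67 and 2.50 CPM in Neuron and had 1 read in PP. Neuron was 269-fold higher by pooled reads, with a counting interval of 47.9 to 10665 (adjusted p = 3.15e-07). Rngtt, the mRNA capping enzyme, moved from 32.5 ± 1.13 to 45.2 ± 1.54 CPM. XLOC_040428 (chr6:97647591-97674559, plus strand, 4 exons) stood at 0.00712 ± 0.0123 CPM in PP, 0.171 ± 0.0868 in DP and 1.85 ± 0.235 in Neuron beside Frmd4b, which stood at 59.5 ± 8.45 CPM in PP, 114 ± 9.23 in DP and 307 ± 7.22 in Neuron.

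Of the 6 largest falls from PP to Neuron within these limits, 5 belong to transcripts already given. The other, XLOC_000135 (chr1:23581381-23604592, plus strand, 4 exons), stood at 1.18, 1.28 and 0.925 CPM in PP, 0.683, 0.775 and 0.675 CPM in DP and 0, 0.0203 and 0.0258 CPM in Neuron. Its 2 reads in Neuron made it 73.4-fold lower by pooled reads, with a counting interval of 20.0 to 612 (adjusted p = 1.61e-07). The fall from PP to DP, 1.58-fold lower (log2 -0.66 ± 0.24 SE, adjusted p = 0.0481), was lost under most alternatives, DESeq2 included. B3gat2, a glucuronyltransferase gene 164000 bases away, stood at 60.1 ± 5.03 CPM in PP, 26.1 ± 7.48 in DP and 30.6 ± 2.20 in Neuron.

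**Figure D2:**
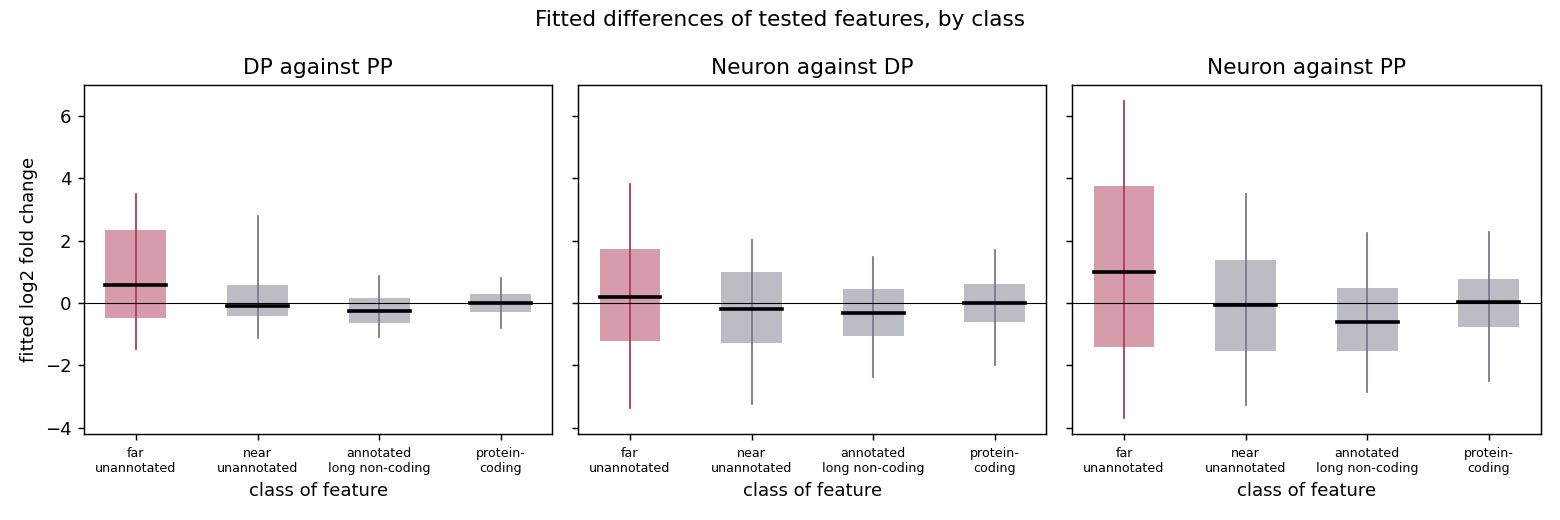
Fitted log2 fold changes of tested features in the 3 comparisons for 209 far and 275 near unannotated transcripts, 1472 annotated long non-coding RNAs and 14718 protein-coding genes: the black line is the median, the box spans the 25th to 75th and the thin line the 10th to 90th percentile. The far transcripts have the widest boxes, and their median is 0.572, 0.186 and 0.994 against 0.000732, 0.0106 and 0.0215 for protein-coding genes.

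Set beside other classes, far transcripts had wider spreads. In DP against PP, 58.4% of the 209 differed by at least 2-fold in the fitted value, against 31.6% of near transcripts, 21.5% of annotated long non-coding RNAs and 15.0% of protein-coding genes. For Neuron against PP these shares were 78.0%, 61.5%, 57.3% and 42.7%. The median of annotated long non-coding RNAs was below 0 in each comparison (-0.27, -0.33 and -0.60), where that of the far transcripts was above it. Reads differed too, with a median over features, not per length, of 0.569 CPM for the 209, 1.25 CPM for annotated long non-coding RNAs and 26.5 CPM for protein-coding genes, and the part of low counts in the spread was not tested. Nor was the difference between the classes, since neighbouring transcripts are not independent. Far and near transcripts were assembled by the authors, while the other classes come from the annotation. Of the 209, 49 were over the filter level in Neuron only, 17 in PP only and 9 in DP only, and this was not counted in the other classes. Of 20 long non-coding RNAs listed for their known roles, 16 were measured and tested. In DP against PP 6 of these were higher and 3 lower, in Neuron against DP 7 and 5, and in Neuron against PP 8 and 4.

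Differentiating progenitors were the peak of 15 far transcripts, which were higher in DP than in both PP and Neuron. This is 7.18% of the 209, against 1.90% of all features, 4.36% of near transcripts and 2.09% of protein-coding genes. The 209 include 9 transcripts over the filter level in DP only, which were tested through the fraction in which they are high. How many of these are among the 15, or among the other classes, was not counted. XLOC_050622 and XLOC_050623 share a locus, as do XLOC_045336 and XLOC_045338. The p of such a transcript is the larger of its 2 comparisons. XLOC_023746 (chr18:72844371-72853064, minus strand, 2 exons) had the smallest. It stood at 1.07, 0.876 and 0.822 CPM in PP, 4.31, 5.81 and 6.85 CPM in DP and 1.03, 0.813 and 0.979 CPM in Neuron, with all DP libraries above all others and PP and Neuron overlapping. DP was 6.14-fold higher (log2 2.62 ± 0.21 SE, adjusted p = 2.89e-06) than PP and Neuron 6.02-fold lower (log2 -2.59 ± 0.21 SE, adjusted p = 5.37e-07) than DP. Dcc, the netrin receptor gene 333648 bases away, rose through both steps, with 17.9 ± 4.12 CPM in PP, 201 ± 32.3 in DP and 410.1 ± 70.8 in Neuron.

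XLOC_009667 (chr12:28283003-28303748, plus strand, 6 exons), matched to Gm4166, stood at 0.644, 0.555 and 0.349 CPM in PP, 4.61, 6.04 and 6.68 CPM in DP and 1.05, 0.996 and 1.62 CPM in Neuron. DP was 11.3-fold higher (log2 3.50 ± 0.27 SE, adjusted p = 2.05e-06) than PP, and Neuron was 4.75-fold lower (log2 -2.25 ± 0.25 SE, adjusted p = 6.51e-06) than DP. Its nearest gene Sox11, a transcription factor of young neurons 255429 bases away, rose on into Neuron, with 192 ± 19.01 CPM in PP, 576 ± 89.7 in DP and 939 ± 82.1 in Neuron. XLOC_012094 (chr13:36704712-36712353, plus strand, 2 exons) stood at 4.91, 5.04 and 3.62 CPM in PP, 11.7, 18.7 and 16.1 CPM in DP and 5.85, 4.78 and 5.31 CPM in Neuron, 3.44-fold higher (log2 1.78 ± 0.18 SE, adjusted p = 1.75e-05) in DP than in PP. Fars2, a mitochondrial tRNA synthetase 75251 bases away, was not called in any comparison, but was higher in DP than in PP with the block (adjusted p = 0.00936).

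All 3 far transcripts between Cmc1 and Eomes on chromosome 9 were among the 15. XLOC_050622 (chr9:118235842-118257452, plus strand, 3 exons) and XLOC_050623 (chr9:118264040-118284288, plus strand, 5 exons) have Eomes as nearest gene, at 129878 and 103042 bases. Eomes is the T-box factor that defines intermediate progenitors. XLOC_050622 stood at 0.322, 0.235 and 0.144 CPM in PP, 1.08, 1.08 and 1.50 CPM in DP and 0.0936, 0.0406 and 0.0515 CPM in Neuron, and XLOC_050623 at 0.242, 0.299 and 0.308 CPM in PP, 1.15, 1.43 and 1.25 CPM in DP and 0.164, 0.0203 and 0.155 CPM in Neuron. In both, each DP library was above each PP and Neuron library. XLOC_050622 was 5.28-fold higher (log2 2.40 ± 0.32 SE, adjusted p = 0.000107) in DP than in PP and 19.05-fold lower (log2 -4.25 ± 0.39 SE, adjusted p = 1.56e-06) in Neuron than in DP. Eomes stood at 235 ± 50.5 CPM in PP, 1162 ± 185 in DP and 81.8 ± 30.7 in Neuron and passed the same pair of tests in the same directions. XLOC_050614 (chr9:118095886-118114598, plus strand, 3 exons), nearer to Cmc1, stood at 2.87, 2.07 and 2.69 CPM in PP, 9.04, 14.4 and 16.8 CPM in DP and 4.78, 2.36 and 3.68 CPM in Neuron. Cmc1, an assembly factor of a respiratory complex, was called higher in DP than in PP with the block only (adjusted p = 0.0456), with 5.02 ± 0.595 CPM in PP, 6.58 ± 0.965 in DP and 4.96 ± 0.442 in Neuron.

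XLOC_007760 (chr11:31604611-31613668, minus strand, 4 exons), 32692 bases from Bod1, stood at 0.215, 0.384 and 0.329 CPM in PP, 1.13, 1.26 and 1.83 CPM in DP and 0.0468, 0.102 and 0.0515 CPM in Neuron. DP was 4.44-fold higher (log2 2.15 ± 0.30 SE, adjusted p = 0.000165) than PP and Neuron 19.7-fold lower (log2 -4.30 ± 0.39 SE, adjusted p = 1.16e-06) than DP. Bod1, a gene of chromosome alignment in mitosis, was called in neither step, with 71.5 ± 5.52 CPM in PP, 78.0 ± 5.29 in DP and 81.8 ± 1.25 in Neuron. On chromosome 7, XLOC_045336 and XLOC_045338 lie 74480 and 86826 bases from Slc17a6, the vesicular glutamate transporter gene VGLUT2. They stood at 0.300 ± 0.0675 CPM in PP, 1.83 ± 0.965 in DP and 0.264 ± 0.0534 in Neuron and at 0.793 ± 0.222 CPM in PP, 6.20 ± 2.16 in DP and 1.50 ± 0.503 in Neuron. Slc17a6 had its highest mean in DP too, with 5.91 ± 2.85 CPM in PP, 161 ± 34.7 in DP and 106 ± 18.3 in Neuron.

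The highest of the 15 by CPM, XLOC_017611, has been given above, and its DP libraries spread from 49.2 to 104 CPM. XLOC_023609 stood at 7.70 ± 1.20 CPM in PP, 19.5 ± 3.53 in DP and 7.77 ± 2.02 in Neuron and XLOC_030246, matched to Gm30735, at 0.305 ± 0.136 CPM in PP, 2.02 ± 0.963 in DP and 0.454 ± 0.215 in Neuron. With the block, XLOC_030246 was the 1 of the 15 that lost its call (adjusted p = 0.0577), and 14 kept it. The other 3, XLOC_007176, XLOC_030177 and XLOC_003143, had a DP mean under 1 CPM, the lowest being 0.511 CPM. Intermediate progenitor markers summed to 1182 to 1218 CPM in PP, 2664 to 3773 CPM in DP and 512 to 589.6 CPM in Neuron. Markers of choroid plexus and hem summed to 18.7 to 59.5 CPM in PP, 42.1 to 94.5 CPM in DP and 55.0 to 66.2 CPM in Neuron, with 4 of 5 higher in DP than in PP and 4 of 5 lower in Neuron than in DP. The part of such cells in the DP peaks was not tested.

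**Figure D3:**
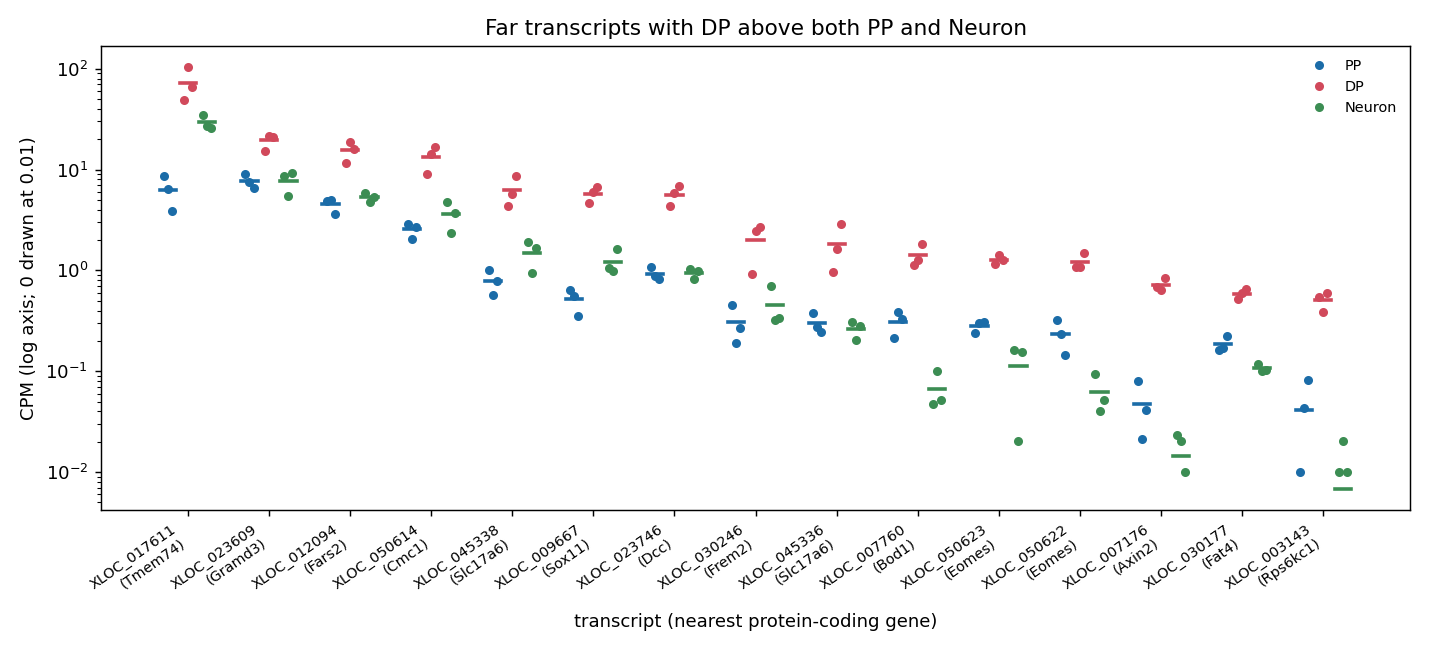
Levels in CPM (log axis, values of 0 drawn at 0.01) of the 15 far transcripts that were higher in DP than in both PP and Neuron, with 1 point per library and a line at each mean, ordered by DP mean and labelled with the nearest protein-coding gene. In all 15 the DP points lie above the PP and the Neuron points.

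The mirror pattern passed no edgeR test: 0 of the 209 were lower in DP than in both other fractions, against 1.62% of all features, and 5 had an unadjusted p under 0.05. DESeq2 called 1, XLOC_049749 (adjusted p = 0.00437), and had 4 at an unadjusted p under 0.05. XLOC_049749 (chr9:41613328-41645195, plus strand, 5 exons) stood at 6.39, 5.68 and 5.59 CPM in PP, 2.80, 1.92 and 2.27 CPM in DP and 4.10, 3.33 and 4.07 CPM in Neuron. Its DP libraries lay below all others, and the edgeR call passed without DP library L223 (adjusted p = 0.0277) and with the block (adjusted p = 0.0189). Without DP library L394 another transcript, XLOC_012805, passed (adjusted p = 0.0310). Both were named after their values were seen.

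Transcripts and their nearest protein-coding gene could be set side by side in 189 pairs with both tested, holding 150 different genes. Of 71 transcripts higher in DP than in PP, the nearest gene was also higher in 45, lower in 9 and not called in 17. Of 34 transcripts lower in DP, the nearest gene was lower in 18, higher in 6 and not called in 10. Over all 189 pairs the nearest gene was higher in 73 and lower in 51. From DP to Neuron the nearest gene of 78 transcripts that rose was higher in 48, lower in 18 and not called in 12, and that of 60 that fell was lower in 27, higher in 16 and not called in 17, against 92 higher and 62 lower over all pairs. From PP to Neuron, 99 transcripts were higher, and their nearest gene was higher in 71, lower in 23 and not called in 5. Of 61 that were lower, the nearest gene was lower in 29, higher in 18 and not called in 14, against 101 higher and 64 lower over all pairs.

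The likeness of the pair was greatest at the shortest distances. Spearman's rank correlation between the log2 differences of transcript and gene in Neuron against PP was 0.624 over 63 pairs at 25000 to 50000 bases, 0.323 over 53 pairs at up to 100000 and 0.245 over 73 pairs beyond. For DP against PP it was 0.640, 0.500 and 0.361, and for Neuron against DP 0.402, 0.374 and 0.186. These are descriptions across genes, which are not independent replicates: all pairs share the 9 libraries, and transcripts of a locus share their gene. Pairs that went opposite ways include XLOC_009804 and Prkd1, XLOC_026497 and Syt13, and XLOC_030007 and Ythdf3.

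**Figure D4:**
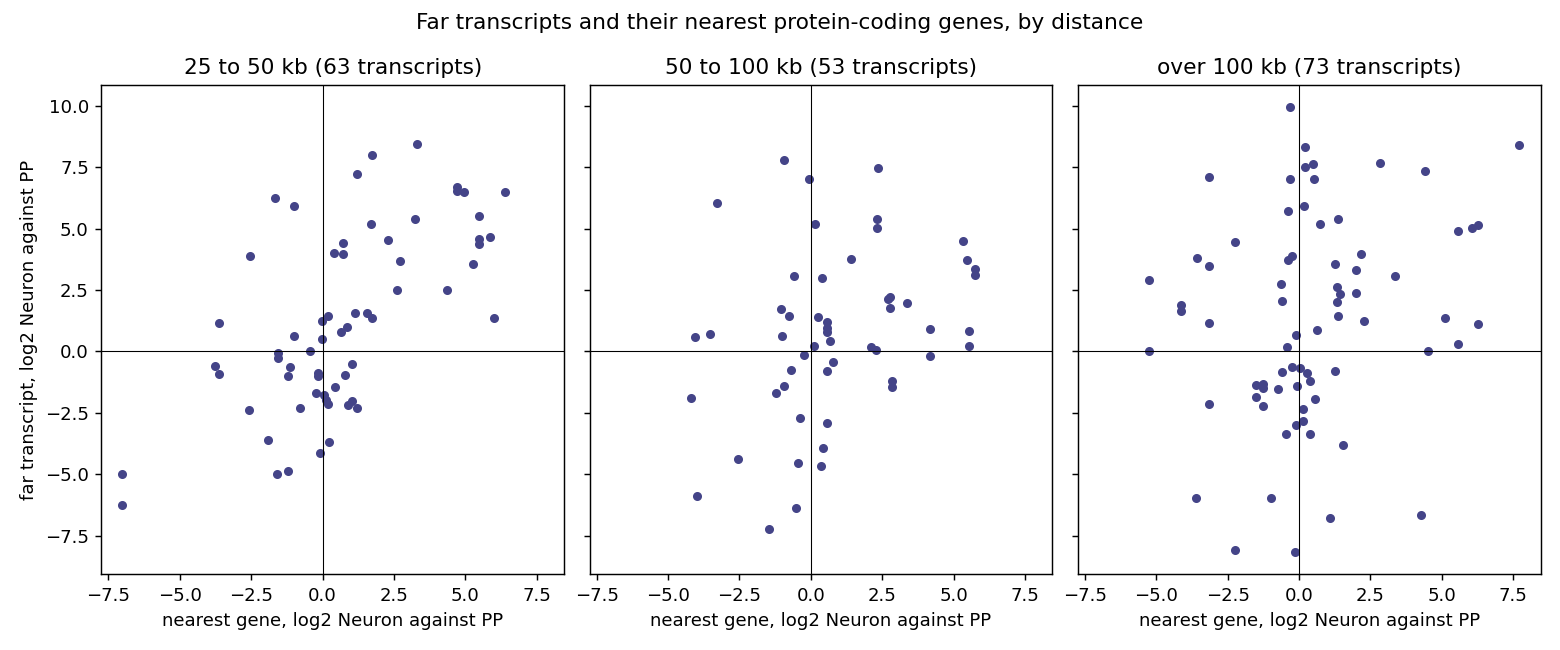
Fitted log2 fold change of Neuron against PP for a far transcript (vertical axis) and its nearest protein-coding gene (horizontal axis), in panels by the distance between them, with 1 point per transcript. The rank order of transcript and gene is more alike in the left panel (Spearman's rank correlation 0.624) than in the middle (0.323) and the right (0.245).

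Where a locus held at least 2 tested transcripts, these seldom moved against each other. There were 30 such loci. In DP against PP no locus had calls in opposite directions, and 13 had all their tested transcripts called the same way. In Neuron against PP, 23 had all called the same way and 1 had opposite calls, and in Neuron against DP the numbers were 18 and 1. No transcript was called in 9 of the 30 loci for DP against PP, in 3 for Neuron against DP and in 1 for Neuron against PP. How often neighbouring features in general share a call was not measured, so these counts have no baseline. The largest fully tested locus lies on chromosome 6 on the side of Neurod6, a transcription factor of cortical neurons. Its 4 transcripts, on both strands, were all higher in DP than in PP and higher again in Neuron.

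At that locus XLOC_039978 stood at 0.215, 0.0641 and 0.103 CPM in PP, 0.871, 1.01 and 1.28 CPM in DP and 1.94, 1.38 and 1.62 CPM in Neuron. XLOC_041404 stood at 0.0387 ± 0.0163 CPM in PP, 0.566 ± 0.222 in DP and 1.84 ± 0.358 in Neuron, XLOC_041405 at 0.252 ± 0.0411 CPM in PP, 2.70 ± 1.25 in DP and 5.96 ± 1.69 in Neuron and XLOC_039982 at 0.0593 ± 0.0410 CPM in PP, 0.482 ± 0.104 in DP and 1.30 ± 0.349 in Neuron. In all 4, PP libraries lay below every DP and Neuron library. Neurod6 stood at 23.6 ± 14.3 CPM in PP, 344 ± 71.1 in DP and 1038 ± 36.5 in Neuron. Some of the transcripts may share reads, since 17 of the 284 overlap another one. The locus with opposite calls, on chromosome 12, held XLOC_009805 (0.0458 ± 0.00686 CPM in PP, 0.248 ± 0.0936 in DP and 0.525 ± 0.161 in Neuron) and XLOC_010888 (1.99 ± 0.353 CPM in PP, 2.15 ± 0.197 in DP and 0.457 ± 0.210 in Neuron). These 6 were named after their values were seen.

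Flanking protein-coding genes divided the 284 into 202 stretches of genome, and 51 of these held 2 to 6 transcripts. The 2 stretches with 6 are both on chromosome 12. Between Cmpk2 and Gm9866, 3 of 5 tested transcripts were higher in DP than in PP and none was lower, while in Neuron against DP 1 was higher and 1 lower. In the stretch between Sox11 and Allc on the same chromosome, 3 of 4 were tested and all 3 were higher in DP than in PP and in Neuron than in PP. Between 3110039M20Rik and Prkd1, 3 of 5 tested transcripts were higher in Neuron than in DP and 1 was lower. On chromosome 8, between Gm5908 and Wrn, a helicase gene, all 3 transcripts were lower in DP than in PP, with XLOC_047055 at 10.5 ± 0.548 CPM in PP, 5.37 ± 0.549 in DP and 4.18 ± 0.412 in Neuron. Other stretches were mixed. Between Rragc and 3100002H09Rik on chromosome 4, 2 of 4 tested transcripts were higher and 2 lower in Neuron than in DP, and the same numbers held against PP. The stretches from Fam49a to Rpl36-ps3 and from Otos to Gpc1 each held 1 higher and 1 lower in Neuron than in PP. From Npvf to Nfe2l3, 1 was higher and 1 lower in Neuron than in DP. These stretches were picked after their values were seen, and whether their transcripts are pieces of longer ones was not tested.

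The 5 transcripts farthest from any protein-coding gene all had few reads. XLOC_023372 on chromosome 18, 2112276 bases from Pik3c3, stood at 0, 0 and 0 CPM in PP, 0.0706, 0.136 and 0.0724 CPM in DP and 0.632, 0.447 and 0.438 CPM in Neuron. It had no read in PP, and Neuron was at least 22.3-fold higher (adjusted p = 1.00e-05) than PP. XLOC_017490, 800057 bases from Dnahc5, stood at 0, 0 and 0 CPM in PP, 0.0235, 0 and 0 CPM in DP and 0.655, 0.691 and 0.361 CPM in Neuron and was at least 25.7-fold higher (adjusted p = 2.62e-05) in Neuron than in PP. XLOC_023372 and XLOC_017490 were tested through Neuron, the fraction in which they are high. XLOC_022963, 698026 bases from Gramd3, stood at 0.0337 ± 0.0419 CPM in PP, 0.243 ± 0.0278 in DP and 0.245 ± 0.0310 in Neuron. Too few reads were left to test XLOC_048559 and XLOC_002693, at 1290554 and 1139427 bases, whose Neuron means were 0.170 ± 0.108 and 0.223 ± 0.123 CPM.

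The 3 transcripts on each side of the distance threshold show its effect on membership. Just outside 25000 bases, XLOC_027464 (25459 bases from Zfp64) stood at 0.372 ± 0.0385 in PP, 0.447 ± 0.171 in DP and 0.893 ± 0.230 CPM in Neuron, XLOC_021286 (25557, Lrpprc) at 0.144 ± 0.113 in PP, 0.0688 ± 0.0450 in DP and 0.00780 ± 0.0135 CPM in Neuron and XLOC_009265 (25643, Tnrc6c) at 0.435 ± 0.117 in PP, 2.05 ± 0.653 in DP and 16.1 ± 1.62 CPM in Neuron. Just inside, XLOC_035353 (24791, Gm12695) stood at 0.00895 ± 0.0155 in PP, 0.0316 ± 0.0359 in DP and 0.216 ± 0.0368 CPM in Neuron, XLOC_020266 (24762, 2210404J11Rik) at 0.0788 ± 0.0450 in PP, 0.238 ± 0.0663 in DP and 0.111 ± 0.0519 CPM in Neuron and XLOC_040805 (24726, Emp1) at 0.0353 ± 0.0446 in PP, 0.435 ± 0.101 in DP and 0.0317 ± 0.0172 CPM in Neuron.

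In the authors' deposited tables, an adjusted p stood for 282 of the 284 transcripts in each comparison. The authors' deposited table had 80 higher and 38 lower at 0.05 in DP against PP, and 106 of the 115 called here were called in that direction there. For Neuron against DP the authors' deposited table had 107 higher and 69 lower, and 143 of the 151 called here had the same call. No transcript called here had the opposite call in the authors' deposited tables.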

How the data were processed

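The deposited tables hold raw counts per gene, whole numbers for 1 column per library and run, as 9 libraries were each read in a single-read and a paired-end run (18 samples). The submitters' processing notes list featureCounts 1.4.4, DESeq2 1.4.5, Cufflinks 2.1.1, TopHat2 2.0.10, Bowtie2 2.2.1 and the build mm9, with no role or order, beside further tools. Whether counting was stranded is not given in sources used here. The authors also deposited, per the file headers, a signal (normalised counts per library), log2 fold changes, a p-value and adjusted p, and a standard error and test statistic as a score. Counts of both runs were added per library here. Reads of the 2 runs come from 1 library and are no separate replicates.

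Distances were taken in mm9 from the intervals of the deposited tables to every protein-coding gene with reads in them. All 9 libraries entered 1 edgeR 4.0.16 quasi-likelihood fit (R 4.3.3) with TMM scaling and filterByExpr, and p-values were adjusted by the Benjamini-Hochberg method over 18627 features. Higher or lower in DP than in both other fractions took the larger p of the 2 comparisons. The pipeline was tested on simulated data. CPM rank reads, not levels per length, and values per kilobase of exon are given where levels of transcripts or classes are compared. DESeq2 1.42.0, other filters, runs, distances and left-out libraries were alternatives. Library totals of 34337209 to 55935128 counts mean that levels under 0.1 CPM rest on a few reads. The labels tie the count columns to fractions, and the library numbers order the values within a fraction. The numbers in the column names, not the labels, form 3 sets of consecutive libraries with 1 library of each fraction. Deviations from the fraction means correlated at 0.187 to 0.462 in all 9 pairs within a set, and at 0.0512 at most in 18 pairs across sets. Deviations within a fraction cancel out, so the values across sets are no separate evidence. By the values within sets, the sets pair the libraries. A fit with the set as a replicate block was added after the data were seen. The labels give separate litters in each pool, and the design calls the libraries biological replicates.

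Transcripts were named by rule: the 8 with the highest mean, per comparison the 6 highest and 6 lowest log2 differences past the threshold with at least 1 CPM in the higher fraction and no overlap, the 6 with the smallest p among those with a DP peak or trough, the 5 farthest, and the 3 nearest to the threshold on either side. The transcripts, this rule and the marker lists (radial glia, intermediate progenitors, neurons, interneurons, Cajal-Retzius cells, red blood cells, endothelial cells, pericytes, microglia, meninges, choroid plexus and hem, known long non-coding RNAs) were chosen with earlier results of these data known. GENCODE M21 transcripts and RefSeq microRNAs on GRCm38 gave sequences, since no mm9 genome was used here.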

Additional observations from a re-analysis of the deposited data

How the results depend on the processing

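Over 120 differences of named transcripts, 2070 of 2117 values under alternatives kept their direction and side of the threshold, 29 lost the call, 18 gained it and 0 of the called ones reversed. Most of the losses concern XLOC_000135 and XLOC_037371 in DP against PP. With the sets of library numbers as a replicate block, added after the data were seen, 78 transcripts were higher and 42 lower for DP against PP, 86 and 67 in Neuron than in DP, and 112 and 67 in Neuron than in PP, of which 76, 37, 85, 65, 111 and 67 were also called without it. It gave 14 transcripts higher and 1 lower in DP than in both others, and changed, beyond those given beside the results, no call of a transcript named there. The shares of tested far transcripts called with the block were 57.4% in DP against PP (51.2% of all features), 73.2% in Neuron against DP (73.1%) and 85.6% in Neuron against PP (80.2%). The far share was thus nearer to that of all features than without the block, and almost equal to it in Neuron against DP. With at least 1 CPM asked in 3 libraries, 94 transcripts were tested, with 44 called higher and 19 lower for DP against PP, 37 and 38 in Neuron than in DP, where the excess of rises was gone, and 50 and 36 in Neuron than in PP. The shares called were then 67% in DP against PP (45.7% of all features) and 79.8% in Neuron against DP (71.5%). DESeq2 gave 41.0% (35.2%) and 60.1% (55.0%), and called 1 transcript lower in DP than in both others, where edgeR called 0. With no filter on low counts the share in DP against PP was 44.7% (28.2%). The single-read run alone gave 47 higher and 24 lower for DP against PP, 47 and 42 in Neuron than in DP, and 59 and 42 in Neuron than in PP. The stricter filter tests fewer transcripts and the single-read run holds fewer reads. The cause of the shifts was not tested for any of these alternatives. A distance over 5000 bases gave 439 transcripts, with 60 lower in DP than in PP, 112 lower in Neuron than in DP, 115 lower in Neuron than in PP and 24 higher in DP than in both others. Over 50000 bases 193 were left, with 23 lower in DP than in PP and 40 lower in Neuron than in PP. Over 100000 bases 120 were left, with 32 and 12 for DP against PP, 37 and 25 in Neuron than in DP, 44 and 25 in Neuron than in PP, and 6 higher in DP than in both. Leaving out each library in turn gave 71 to 84 higher and 31 to 42 lower for DP against PP, 82 to 92 and 58 to 69 in Neuron than in DP, and 105 to 119 and 65 to 74 in Neuron than in PP. It gave 12 to 16 higher and 0 to 1 lower in DP than in both, and shares called of 46.0% to 55.2% in DP against PP and 65.6% to 71.9% in Neuron against DP. Depth limits the 75 transcripts that were not tested and folds against fractions with few or no reads.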
